A study of Mus musculus with 31 samples.

Results

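Liver RNA of wild-type mice, the littermates of animals without any ChREBP (labelled ChREBPtotal_WT), was measured on 8 arrays. It was compared between 3 arrays with a high signal for Cela3b and 5 arrays without it. Cela3b encodes a digestive elastase that acinar cells of the pancreas secrete. The arrays were chosen by the deposited log2 value of the brightest Cela3b probe, above 7 for replicates 2, 7 and 8 and below 7 for replicates 1, 3, 4, 5 and 6. The lowest value above the line was 8.49 on array 7 and the highest value below it was 5.58 on array 1. The 8 arrays belong to a series of 31, and none of the other 23 exceeded 5.50 for Cela3b.

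The series measured the liver of male C57BL6/J mice on one-colour Agilent arrays, 1 array per labelled sample. It holds 8 ChREBPtotal_WT arrays, 7 ChREBPtotal_KO arrays (mice null for Mlxipl, the gene of the glucose-responsive transcription factor ChREBP, and so for both its isoforms), 8 ChREBPbeta_KO arrays (mice lacking only the β isoform after germline deletion of its own exon by CRISPR/Cas9) and 8 ChREBPbeta_WT arrays from littermates of that line. All mice were fasted for 24 hours and then refed for 18 hours with food and water holding 20% glucose. The 8 arrays described here therefore come from mice with intact Mlxipl in 1 group, and the division among them is a measured one that no label gives. Both deletions are carried in every tissue, so the design does not separate liver from other organs.

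Acinar cells make up most of the exocrine pancreas. They package digestive enzymes, many as inactive precursors, into zymogen granules that are released into the pancreatic duct and reach the duodenum, and these transcripts are among the most abundant of any tissue. The pancreas lies beside the duodenum, the bile duct and the hilum of the liver. Its other parts are the duct epithelium and the islets, which secrete hormones into the blood.

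The sequences on which the division rests are those of the array probes, short DNA strands that bind the labelled RNA. The 3 probes below, written 5′ to 3′, are shown because they read an elastase, a trypsinogen and an amylase, each with at least 1 reading frame free of stop codons. On mouse build mm9 the Cela3b probe lies at chr4:136977835-136977894 (minus strand), the Prss2 probe at chr6:41473937-41473996 (plus strand) and the Amy2b probe at chr3:112957176-112957235 (minus strand), all positions as given in the scanner files.
Cela3b probe: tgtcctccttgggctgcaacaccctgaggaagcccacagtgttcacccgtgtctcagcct
Prss2 probe: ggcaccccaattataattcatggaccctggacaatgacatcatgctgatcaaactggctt
Amy2b probe: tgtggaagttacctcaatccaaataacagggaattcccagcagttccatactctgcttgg

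Acinar genes are known for short promoters bound by basic helix-loop-helix factors such as Ptf1a, which recognise E-boxes. The 100 bases before the start of 4 acinar genes that stood higher on the 3 arrays are shown from RefSeq (build GRCm38.p6) as examples of genes that stood higher together, with the E-box letters CACCTG, or CAGGTG where they lie on the other strand, in capitals. The windows are chr4:137430521-137430620 (minus) for Cela3b, chr4:137409792-137409891 (minus) for Cela3a, chr3:20275734-20275833 (minus) for Cpb1 and chr7:28540785-28540884 (plus) for Sycn.
Cela3b: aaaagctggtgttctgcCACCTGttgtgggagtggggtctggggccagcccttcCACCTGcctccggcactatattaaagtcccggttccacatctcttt
Cela3a: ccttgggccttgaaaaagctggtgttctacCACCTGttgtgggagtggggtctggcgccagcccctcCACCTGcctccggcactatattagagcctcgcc
Cpb1: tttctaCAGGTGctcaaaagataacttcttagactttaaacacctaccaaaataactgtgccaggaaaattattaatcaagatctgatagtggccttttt
Sycn: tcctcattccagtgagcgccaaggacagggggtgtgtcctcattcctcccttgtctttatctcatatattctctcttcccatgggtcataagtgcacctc

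Cela3b and Cela3a are neighbouring elastase genes, and their windows matched at 79 of 87 aligned bases when shifted by 13, with 2 E-boxes each. The window of Cpb1 held 1 match and that of Sycn held none. In the 250 bases before the start, the letters were found on either strand for 13 of the 22 acinar genes that stood at least 2-fold higher and had a window, against 17.2% of all 32851 windows. In the last 100 of these bases they were found for 7 of the 22, against 7.03% of all windows. A match describes the letters and not a bound site. Clps, Ctrc, Try5 and Zg16 are named without a window.

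Arrays 7 and 8 were nearly the same measurement. Over 15894 probes with a mean above 8, the log2 difference between them had an SD of 0.092, and 96.5% of these probes differed by less than 0.2. The next most alike of the 465 pairs of arrays had an SD of 0.175, and the other pairs among the 8 arrays had SDs of 0.214 to 0.409. Repeated spots of 1 probe on 1 array differed by an SD of 0.167 to 0.222. Arrays 7 and 8 were the only pair that differed by less than the lowest of these repeated-spot SDs. For that reason they were counted as 1 sample by their mean, and a mean over the 3 high arrays has n = 2. They lay on different slides, and whether they hold RNA of 1 mouse was not tested.

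The 3 arrays were not unlike the others in quality. The median local background was 15 to 18 on the 3 arrays and on the 5, and 35249 to 37405 spots per array passed the authors' detection weights against 34979 to 37376. Array 2 was scanned on the same day as arrays 1, 3 and 4, and arrays 7 and 8 on the same day as arrays 5 and 6, so both scan days held high and low arrays. The brightest Mlxipl probe read 15.14 to 15.48 on the 8 ChREBPtotal_WT arrays and 13.89 to 14.30 on the 7 ChREBPtotal_KO arrays, as labelled. Other Mlxipl probes had log2 KO minus WT differences of -0.59 and -0.05 in this line. Whether any of these probes lies in the deleted part is not known here.

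The marker genes given for pancreatic RNA all separated the arrays. Levels of single probes are log2 of the quantile-normalized spot intensity throughout. Cela3b read 10.41 on array 2, 8.49 on array 7 and 8.81 on array 8, against 5.58, 5.39, 5.48, 5.36 and 5.09 on arrays 1, 3, 4, 5 and 6. The high arrays averaged 9.53 ± 1.24 (SD, n = 2) and the low arrays 5.38 ± 0.18 (SD, n = 5), which is 4.15 apart on the log2 scale or 17.7-fold. Since Cela3b chose the arrays, this is a description with no test, and so is every other difference between the 3 and the 5 arrays, which are the same 8 arrays throughout.

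Sycn, which encodes the granule membrane protein syncollin, read 10.45, 8.07 and 8.23 on arrays 2, 7 and 8, against 5.78, 5.68, 5.93, 5.78 and 5.95 on arrays 1, 3, 4, 5 and 6. Clps, which encodes colipase, the cofactor of pancreatic lipase, read 10.85, 9.07 and 9.11, against 6.84, 6.74, 6.84, 6.83 and 6.97 in the same order. Both genes split the arrays exactly as Cela3b did, with array 2 highest, and the mean differences were 3.47 (11.1-fold) for Sycn and 3.13 (8.73-fold) for Clps. In the other 3 groups the ranges were 4.96 to 5.50 for Cela3b, 5.68 to 6.18 for Sycn and 6.68 to 7.99 for Clps, and none of the 23 arrays reached the lowest of the 3 high arrays in any of these genes.

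**Figure D1:**
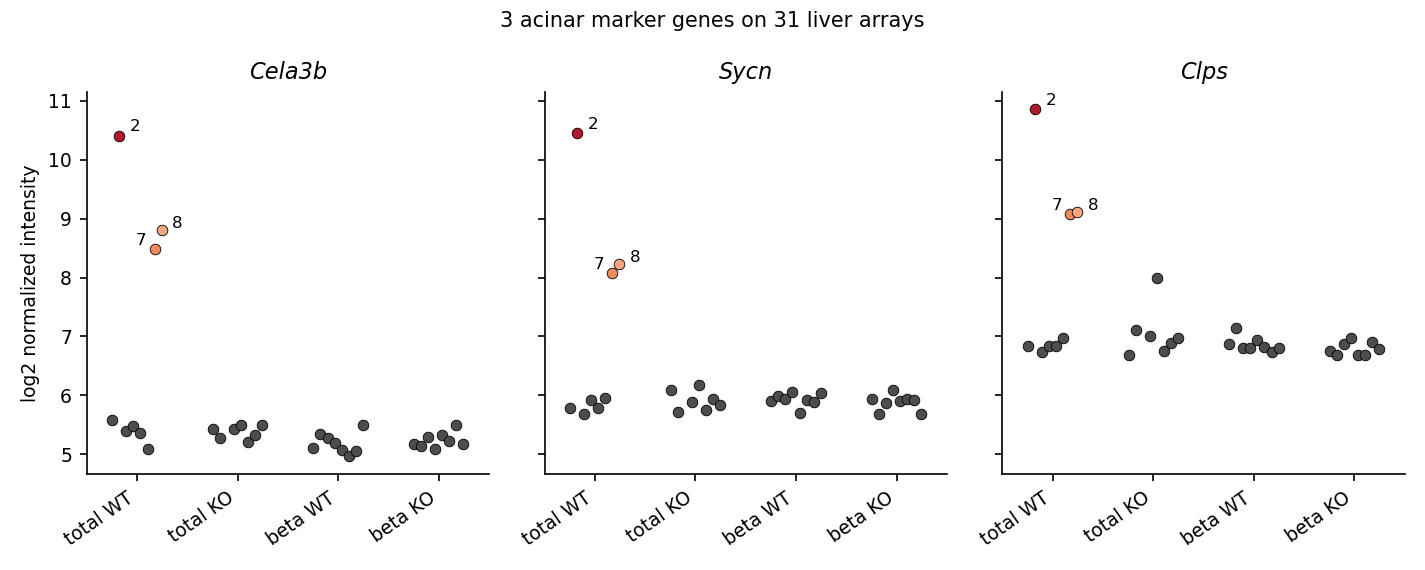
Log2 normalized intensity of Cela3b, Sycn and Clps on each of the 31 arrays (1 point per array) by group, with replicates 2, 7 and 8 of the total WT group numbered. These 3 arrays stood at 8.07 to 10.85, above all others, and the next highest point was a Clps value of 7.99 on a total KO array.

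Across all probes past the detection filter, 35 of 36059 (0.0971%) stood at least 2-fold higher on the 3 arrays with no overlap between the 3 and the 5, and 4 (0.0111%) stood at least 2-fold lower. Without the 2-fold limit, 613 of the 36059 probes stood higher with no overlap and 453 stood lower. The 35 probes read 33 genes. Of these, 11 were on the 4 lists of acinar genes, namely the proteases Cela3b, Cela2a, Cela1, Ctrc, Ctrb1 and Ctrl, the lipid and starch enzymes Amy2a5, Cel and Clps, and the granule proteins Sycn and Zg16. The 4 lists hold 55 acinar genes, of which 50 have a probe by that name and 23 have a probe past the filter. The filter asked for a signal on at least 26 arrays or on 6 of 1 group, so a gene seen on 3 arrays alone could not pass. With arrays 7 and 8 counted as 2 samples the 35 probes became 27, with the same number of acinar genes, 11.

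Without the filter, 55 of 56605 probes (0.0972%) stood at least 2-fold higher with no overlap. These read 27 of the 50 acinar genes and 24 others, and no acinar gene stood 2-fold lower. The 16 acinar genes gained had probes that the filter left out, and their levels are given on the scale normalized without it. The median difference over all probes of the 4 acinar lists was 0.96 without the filter, against -0.01 over all probes. Of the 50 acinar genes, 37 were well above background on all 3 high arrays and 23 on all 5 low arrays. The count over acinar genes is a description of the arrays that Cela3b chose and supports no statement beyond them.

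**Figure D2:**
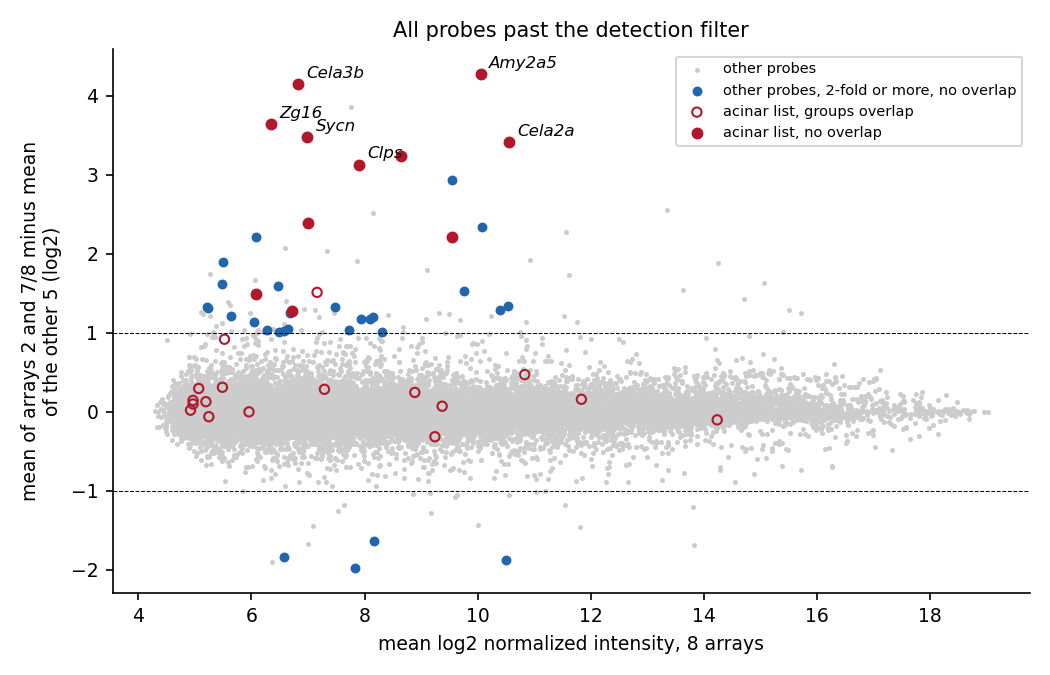
Difference between the mean of the 3 high arrays (arrays 7 and 8 averaged first) and the mean of the other 5, in log2, against the mean over the 8 arrays, for the 36059 probes past the filter, with dashed lines at 2-fold. Most probes lay near 0, and the points farthest above it were mainly acinar genes led by Amy2a5 and Cela3b (4.27 and 4.15).

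Proteases were the most numerous of the genes that stood higher, with 14 of 17 genes at least 2-fold apart with no overlap. Trypsinogens, the precursors of trypsin, differed most. Prss3 read 11.81, 10.12 and 10.26 on arrays 2, 7 and 8, against 4.25, 3.96, 4.01, 4.16 and 4.18 on arrays 1, 3, 4, 5 and 6. Its probe was not well above background on any of the 5 arrays, so the difference is given as at least 89.8-fold, with the lowest signal above background on each array as the floor. Try4 stood at least 85.5-fold higher by the same measure, with 11.68, 10.12 and 10.37 against 3.92 to 4.59. Prss2 read 9.97, 8.35 and 8.41 against 4.33 to 4.59, at least 25-fold higher. Try5 read 11.59 on array 2 and 10.35 on array 8 against 4.19 to 4.82, with means 93.4-fold apart and 1 of the 5 low arrays above background. A second Prss3 probe, at 5.65 to 6.15 on the 8 arrays, overlapped between them. These genes belong to a family of close copies. The Try4 and Try5 probes shared 43 of 45 overlapping bases and the Prss3 probe shared 45 of 48 with that of Gm5771, so the array may not separate the members.

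The carboxypeptidases Cpa1 and Cpb1, which trim proteins from the end, both stood higher on the 3 arrays. Cpb1 read 10.46, 8.66 and 9.07 on arrays 2, 7 and 8, against 4.46, 4.69, 4.59, 4.33 and 4.47 on arrays 1, 3, 4, 5 and 6, at least 34.2-fold higher. Cpa1 read 10.87, 9.12 and 9.29 against 4.6 to 4.70, and the means of the measured values were 41.8-fold apart, although only 2 of the 5 low arrays were above background.

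Among the elastases, Cela3a read 11.14, 9.21 and 9.49 against 4.19 to 4.51, at least 53.2-fold higher. Cela2a (13.50, 11.99 and 12.11 against 8.99 to 9.99) and Ctrc, chymotrypsin C (11.53 on array 2 and 9.97 on array 7 against 7.14 to 8.09), had measurable signal in every liver. Their differences were 10.6-fold and 9.38-fold. A second Cela1 probe, bright on all arrays at 13.88 to 14.59, overlapped between the arrays, whereas the dimmer probe stood 2.81-fold higher. Ctrb1, chymotrypsinogen B, read 11.94, 10.09 and 10.18 against 8.41 to 9.12, 4.61-fold higher, and Ctrl, a chymotrypsin-like enzyme, read 8.10, 6.97 and 7.19 against 6.09 to 6.47, 2.43-fold higher. The other trypsinogen-like gene 2210010C04Rik stood 0.81 higher without overlap. Prss1 and the kallikrein Klk1 overlapped between the arrays.

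Of the genes for digestion of fat, starch and RNA, 8 of 10 stood at least 2-fold higher. Amy2a5, a pancreatic amylase, read 13.62, 11.84 and 12.21 on arrays 2, 7 and 8, against 8.58, 8.74, 8.52, 8.56 and 8.36 on arrays 1, 3, 4, 5 and 6. The difference was 19.3-fold. A second probe named Amy2a5 differed by 0.47 with overlapping arrays, so the probes of this gene disagreed. Amy2b read 8.60, 7.13 and 7.31 against 4.18 to 4.51, at least 10.5-fold higher.

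Pnlip, pancreatic lipase, read 9.49, 8.01 and 8.26 against 4.18 to 4.33 on its more responsive probe, at least 19.7-fold higher. Its relative Pnliprp1 stood at least 9.20-fold higher, and Cel, the bile salt-dependent lipase, 5.25-fold. Pnliprp2 was the least different of the genes past 2-fold, with a measured 2.01-fold, at least 1.55-fold against the floor, and 2 of the 3 high arrays above background. Rnase1, pancreatic ribonuclease, read 7.10, 5.68 and 5.83 against 4.51 to 5.05, 3.05-fold higher, with 4 of the 5 low arrays above background. Pla2g1b, a secreted phospholipase, stood higher on 1 of its 2 probes with no overlap but not 2-fold (a difference of 0.90).

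The granule proteins split into genes that followed Cela3b and genes high on array 2 alone. Gp2, the main glycoprotein of the zymogen granule membrane, read 7.80, 6.50 and 6.50 against 4.33 to 4.55, at least 6.11-fold higher, and Zg16 read 9.52, 7.87 and 7.99 against 4.93 to 5.56, 12.5-fold higher. Reg1, a secreted protein of injured and normal acinar cells, stood 9.63-fold higher, with 6.31 on array 3 as the highest of the 5. Reg2, a relative of Reg1, read 9.96 on array 2 but only 4.62 and 4.32 on arrays 7 and 8, against 3.98 to 4.32 on the other 5. Reg3a, Reg3b, Reg3d and Reg3g were likewise highest on array 2, at 5.23, 6.89, 6.87 and 5.46, and on arrays 7 and 8 they read 3.91 to 5.60. Members of the Reg family are known to be raised in pancreatic inflammation. Serpini2, a serpin of pancreas, stood 0.72 higher without overlap. Spink1, a trypsin inhibitor, overlapped between the arrays.

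Of the regulators and endoplasmic reticulum genes of the acinar cell, which are not secreted, 1 of 11 stood at least 2-fold higher. It was Pdia2, a protein disulphide isomerase of pancreas (6.91, 5.66 and 6.12 against 4.47 to 4.76, at least 3.43-fold). Ptf1a, the factor that defines acinar identity, was not well above background on any of the 8 arrays, with 4.53, 4.78 and 4.45 against 4.19 to 4.53. Its partner Rbpjl read 5.41, 5.23 and 5.02 against 4.83 to 5.18, an overlap. Bhlha15, Nr5a2, Gata4 and Erp27, which liver also expresses, overlapped between the arrays, and Cckar and Aqp12 were not above background on any of the 8.

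**Figure D3:**
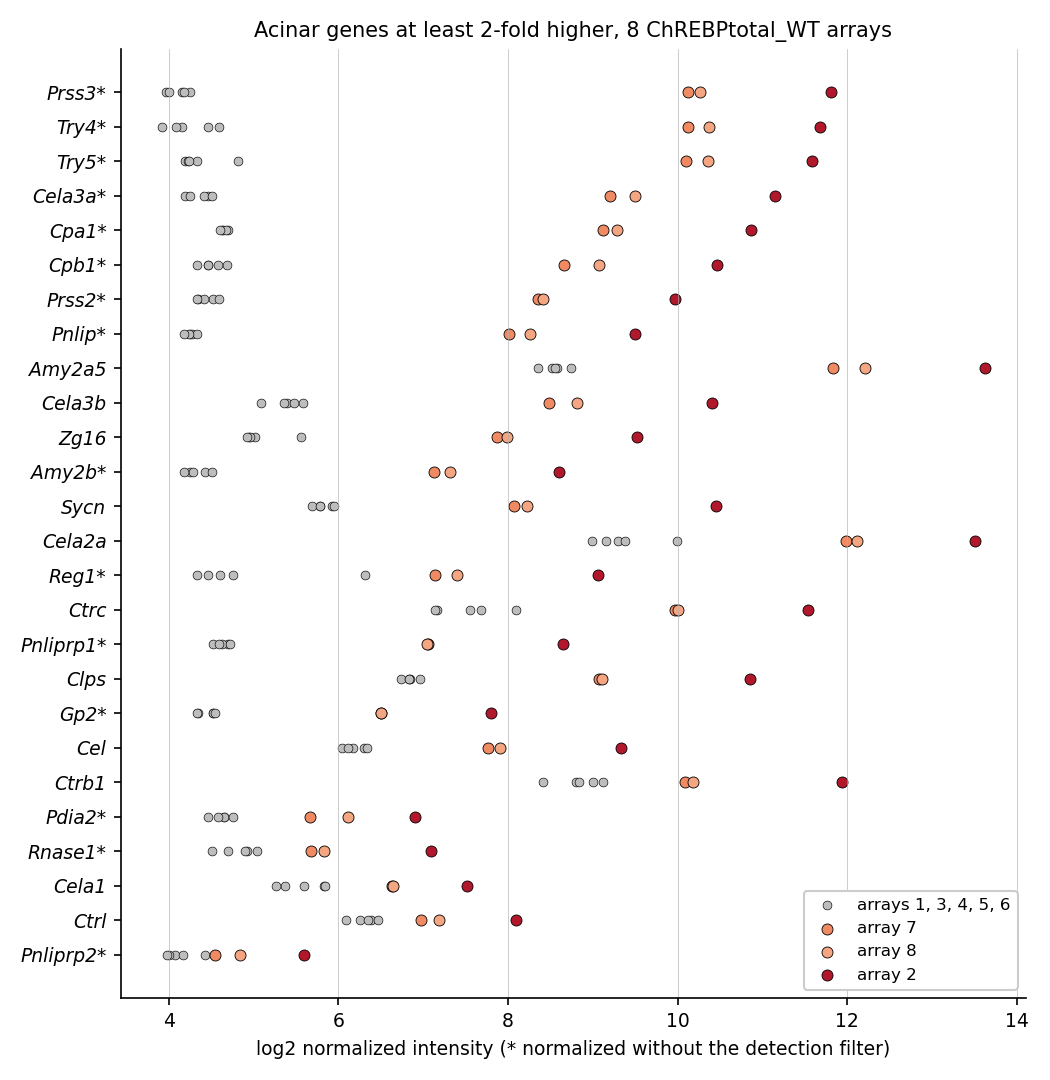
Log2 normalized intensity on each of the 8 total WT arrays for acinar genes at least 2-fold higher without overlap, 1 row per gene (the probe with the largest difference) and 1 point per array, ordered by the difference. Array 2 was highest in every row, arrays 7 and 8 lay together below it, and the other 5 arrays clustered at the left.

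The acinar signal differed between array 2 and the pair of arrays 7 and 8 by a similar factor from gene to gene. For each of the 29 acinar probes, the mean processed signal of the 5 low arrays was subtracted and the remainder on array 2 was divided by that of arrays 7 and 8. The ratio had a median of 3.40, with 25th and 75th percentiles of 3.01 and 3.74 and a range of 2.57 to 5.74. These are the acinar probes without the detection filter, and the 26 probes of other genes at least 2-fold higher without it had a median of 4.12 and a range of 0.953 to 31.3. Past the filter, 11 acinar probes had a median of 3.71 and a range of 2.87 to 5.74, and 24 other probes a median of 3.59 and a range of 0.953 to 21.2. The range was narrower for the acinar probes under either filter, as a description of these arrays. The acinar and other probes were not matched for the size of their difference, and a small remainder makes the ratio less certain. Array 8 read higher than array 7 in 26 of the 29 acinar probes, with a median difference of 0.16 on the log2 scale. In bulk tissue, a difference in cell number and a difference in RNA per cell cannot be told apart. The source of the acinar RNA was not tested.

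Among probes past the detection filter, the 10 genes most like Cela3b in their pattern over the 8 arrays were Amy2a5, Zg16, Clps, Sycn, Cel, Cela2a, Nipal1, Ctrc, Trim24 and Ythdf2. Likeness was measured by the correlation of log2 values, which fell from 0.998 for Amy2a5 to 0.966 for Ythdf2. Acinar genes that the filter left out were as close, with 0.997 for Gp2, 0.996 for Prss2 and 0.995 for Cpb1. The arrays form separate clusters, so this ranks genes mainly by how cleanly they part the same arrays and is no test. In the 23 arrays that the rule did not use, Cela3b varied by little, Sycn ranged from 5.68 to 6.18 and Cel from 6.01 to 6.53. Zg16 ranged from 4.87 to 12.74 there, and Cela2a from 7.45 to 11.31, so these genes varied on arrays low in Cela3b.

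The 8 lists for other cells and tissues gave few differences. Genes named below as parted but not 2-fold apart stand beside 613 higher and 453 lower probes with no overlap, of 36059. Among islet genes, 0 of 19 stood at least 2-fold higher. Ins2, an insulin gene, read 5.30, 4.92 and 4.81 on arrays 2, 7 and 8, against 4.59, 4.19, 4.53, 4.33 and 4.58 on arrays 1, 3, 4, 5 and 6. It was well above background on all 3 high arrays and on none of the other 28, at least 1.42-fold higher. Ins1 read 5.84, 5.33 and 5.15 against 4.95 to 5.25, an overlap, and the more sensitive Gcg probe, for glucagon, read 6.16, 5.95 and 5.98 against 6.10 to 6.49. Iapp, Ppy and Neurod1 were not above background on any of the 8 arrays. The summed level of the islet list was 622 to 726 on the 3 arrays and 614 to 688 on the 5. Summed levels of lists are linear intensities and not log2, over the brightest probe of each gene, normalized without the filter.

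Duct genes did not part the arrays, apart from Krt7, a keratin of duct epithelium, which read 6.51, 6.41 and 6.41 against 5.78 to 6.20. Krt19 read 9.01, 7.52 and 7.84 against 7.34 to 7.91, and the Cftr probe past the filter read 5.89, 5.96 and 5.90 against 5.75 to 5.99. Bile ducts of the liver express the same genes. The summed level of the duct list was 6363 to 7310 on the 3 arrays and 6253 to 12281 on the 5.

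In the list of stellate and mesothelial genes, Msln, a surface protein of the mesothelium that covers the abdominal organs, was the only gene at least 2-fold higher. It read 9.09, 8.29 and 8.41 on arrays 2, 7 and 8, against 7.57, 6.55, 7.66, 7.95 and 7.99 on arrays 1, 3, 4, 5 and 6, a 2.26-fold difference. Upk3b, another mesothelial gene, read 5.89, 6.01 and 5.93 against 4.81 to 5.77. Acta2, Des and Col1a1 overlapped between the arrays. The summed level of this list was 25674 to 28641 on the 3 arrays and 18343 to 27025 on the 5, and its part in the acinar difference was not tested.

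Genes of stomach and gut overlapped except for Tff2 and Gif. Tff2, a mucosal peptide of the stomach and duodenal glands, read 8.08, 5.48 and 5.70 against 4.74 to 5.33, and Gif, intrinsic factor, stood lower without overlap (6.95, 7.17 and 7.05 against 7.18 to 7.34). Tff1 overlapped, and Tff3 read 14.20, 11.98 and 12.08 against 8.63 to 12.11. Gkn1, Gkn2, Alpi, Lct and Pgc, which mark stomach or intestine, were not above background on any of the 8 arrays. Replicate 5 of the total KO group and replicate 5 of the β KO group were high in Tff2 (16.27 and 13.28), Zg16 (12.74 and 8.04) and Reg1 (13.51 and 10.27). On those arrays Cela3b read 5.50 and 5.32, Prss3 4.34 and 4.08, and Cpb1 4.57 and 4.48, within the range of the other 21 arrays of the 3 remaining groups. Total KO replicate 5 stood above those 21 in other acinar genes, with 11.31 for Cela2a (highest of the others 10.75), 9.28 for Ctrc (8.79), 7.99 for Clps (7.14) and 7.38 for Gp2 (4.65). It was barely above them in Sycn (6.18 against 6.09) and Ctrb1 (8.97 against 8.96).

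Adipocyte genes did not follow the same division of the arrays. Cfd, which encodes adipsin, read 11.03, 5.29 and 5.59 on arrays 2, 7 and 8, and 5.30, 4.81, 4.69, 11.44 and 4.59 on arrays 1, 3, 4, 5 and 6. It was therefore high on array 2 and on array 5. Adipoq read 7.19, 4.48 and 4.81 against 4.26 to 7.82, and Plin1 likewise overlapped. No gene of the adipocyte, lymphoid, red blood cell or hepatocyte lists stood 2-fold apart without overlap.

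Hepatocyte genes showed the tissue to be liver on all 8 arrays, with 15 of 15 above background on every array. Alb read 18.96 on each, and Apoa1 read 16.43, 16.20 and 16.22 against 15.94 to 16.25. Quantile normalization gives probes of the same rank the same value on every array. Equal readings of very bright probes can therefore follow from it, and they do not measure equal liver content. The summed level of the hepatocyte list was 2958330 to 3149250 on the 3 arrays and 2861500 to 3012930 on the 5. Hba-a1, Hba-a2 and Hbb-b1, which mark blood in the tissue, and Cd79a and Cd79b of B cells overlapped between the arrays.

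**Figure D4:**
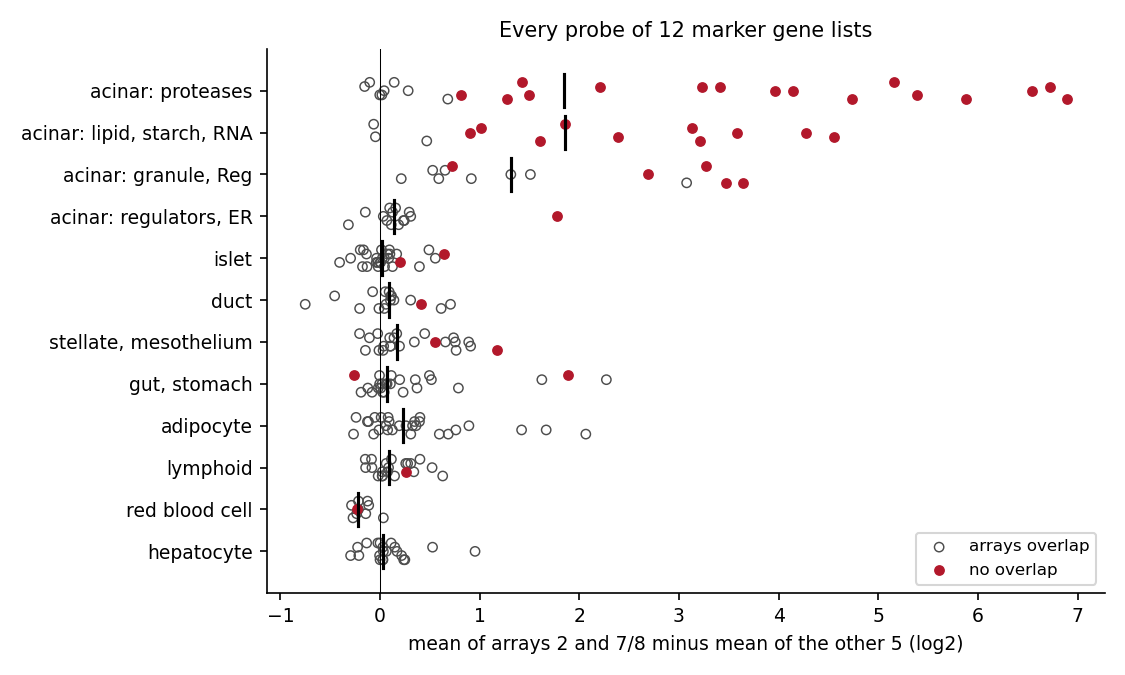
Difference between the 3 high arrays (arrays 7 and 8 averaged first) and the other 5, in log2, for every probe of 12 marker gene lists, with filled points for probes whose arrays did not overlap and a bar at each list's median. The 3 lists of secreted acinar products extend to 6.89, and the other lists stay within 3 of 0.

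Of the 22 genes outside the acinar lists that stood at least 2-fold higher past the filter, Mt1, Mfsd2a and Nipal1 differed most. Mt1, a metallothionein induced by stress and fasting, read 11.71, 11.10 and 11.17 on arrays 2, 7 and 8, against 7.12, 8.89, 10.69, 8.13 and 7.61 on arrays 1, 3, 4, 5 and 6. Mfsd2a, a lysolipid transporter of the liver induced by fasting, read 11.84, 11.26 and 11.35 against 7.59 to 11.04. The gap between the arrays was narrow in both, since array 4 reached 10.69 in Mt1 and array 5 reached 11.04 in Mfsd2a. Nipal1 read 7.75, 7.12 and 7.37 against 5.04 to 5.73. The same set held genes of connective tissue and surface membranes that are on none of the lists and were chosen after their values were seen. They do not stand for the whole set, which also held genes of other kinds, such as Hamp2, Birc5 and Ccrn4l. Pdpn, which encodes podoplanin of lymphatic vessels and mesothelium, read 9.19, 7.46 and 7.76 against 6.53 to 7.44. The matrix genes Mfap5 (7.66, 5.51 and 5.63 against 4.71 to 5.19) and Fbln2 (9.21, 7.70 and 7.74 against 7.29 to 7.62) stood higher too, mostly on array 2. Igfbp6 read 9.33, 8.55 and 8.71 against 7.13 to 8.45. Rspo1, Dmkn and Nkain4 had mean differences of 1.04, 1.25 and 1.02, and the part of these genes in the acinar difference was not tested. Mt1, Mfsd2a and Nipal1 ranged widely in the 23 other arrays, from 5.56 to 10.35 for Mt1, from 5.22 to 12.13 for Mfsd2a and from 4.90 to 8.72 for Nipal1.

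The 4 probes at least 2-fold lower read Serpina12, Tpgs2 and 2 intergenic transcripts. Serpina12, which encodes vaspin, read 4.86 on array 2 but 8.02 and 7.88 on arrays 7 and 8, against 8.61, 8.36, 8.52, 8.13 and 8.31 on arrays 1, 3, 4, 5 and 6, so that array 2 made the difference. Tpgs2 was lower only because array 4 read 14.52, while the remaining 7 arrays read 7.12 to 7.41. The other genes among the 10 with the lowest differences, such as Ppp1r3c, Mpzl1 and Osgin1, differed by -0.64, -0.61 and -0.59 on the log2 scale.

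The β line gave KO minus WT differences from 16 arrays that the rule did not use. The p-values rest on a spread fitted over all arrays, including the 3 ChREBPtotal_WT arrays above 7 in Cela3b. With limma over all 31 arrays, 1 of 36059 probes (0.00277%), the brightest Mlxipl probe, was called at an adjusted p of 0.0152. Other Mlxipl probes differed by -0.46 (adjusted p = 0.909) and -0.06 and were not called. None of the 23 acinar genes past the filter was called, and none had an unadjusted p under the limit of 0.05, which 4.98% of all probes had. These p-values are not independent of the 3 arrays. The SE was 0.501 for Cela3b and 0.523 for Amy2a5 with all arrays, against 0.075 and 0.116 without the 3. It did not fall for every acinar gene (0.431 and 0.441 for Bhlha15). In the limma fit without the 3, again 0 acinar genes were called and 0 had an unadjusted p under 0.05. The median KO minus WT difference was 0.03 over the acinar probes and 0.00 over all probes. Cela3b differed by 0.05 and Amy2a5 by 0.04 between β KO and WT mice.

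The total line compares 7 ChREBPtotal_KO arrays with the 8 ChREBPtotal_WT arrays, of which 3 hold the acinar signal. Since those 3 arrays chose the genes, the KO minus WT values are given with and without them. With all arrays, limma called 5248 probes lower in total KO mice (14.6%) and 5229 higher (14.5%). Of the 11 acinar genes that stood at least 2-fold higher on the 3 arrays and passed the filter, 5 were called lower in KO mice. They were Amy2a5 (-1.65 ± 0.54, SE, adjusted p = 0.0212), Cela3b (-1.45 ± 0.52, adjusted p = 0.0346), Ctrl (-0.51, adjusted p = 0.0332), Ctrb1 (-0.77, adjusted p = 0.0464) and Cel (-0.80, adjusted p = 0.0478).

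These p-values use the arrays that chose the genes and are no independent evidence. Leaving those arrays out removes the values by which the genes were chosen, so a smaller difference follows from the choice and is given as a description. Without arrays 2, 7 and 8, none of these 5 genes was called, and the differences were -0.14 for Amy2a5, 0.00 for Cela3b, -0.09 for Ctrl, -0.06 for Ctrb1 and 0.01 for Cel. With arrays 7 and 8 averaged to 1 sample the differences stayed close to those with all arrays, at -1.36 for Amy2a5, -1.19 for Cela3b, -0.46 for Ctrl, -0.69 for Ctrb1 and -0.68 for Cel, but none passed the threshold (adjusted p = 0.0542 for Amy2a5 and 0.0841 for Cela3b). Sycn (-1.07, adjusted p = 0.0666) and Clps (-0.85, adjusted p = 0.119) were not called with all arrays. Without the 3 arrays they differed by 0.09 and 0.21. Without the detection filter, 14 of the 27 acinar genes were called lower in KO mice with all arrays, against 9.07% of all probes, among them Cpb1 (-1.94, adjusted p = 0.0307) and Prss2 (-1.69, adjusted p = 0.0413), and 0 of the 14 were called without arrays 2, 7 and 8. With arrays 7 and 8 averaged, 0 of the 14 were called as well, with differences of -1.58 for Cpb1 (adjusted p = 0.0795) and -1.36 for Prss2 (adjusted p = 0.104).

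Other members of the acinar lists kept their call. Bhlha15 was lower in KO mice by -1.51 (adjusted p = 0.0106) with all arrays and by -1.50 without the 3. The brighter Gata4 probe was lower by -0.34 and -0.44, whereas a dimmer one differed by -0.07 and -0.04 and was not called. Spink1 and Dpep1, a kidney and pancreas dipeptidase, were higher in both fits. The dimmer Cela1 probe, not called with all arrays (0.17), was higher in KO mice by 0.67 without the 3 (adjusted p = 0.00972). The brighter Cela1 probe differed by 0.26 in both fits, in the same direction, and was not called, so the call rests on the dimmer probe. Over all probes, 10477 were called with all arrays and 8664 of them were still called without the 3.

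For the 11 genes, the KO minus WT difference was not shown to differ between the total and β lines with all arrays. The difference of the differences was -1.69 for Amy2a5 (adjusted p = 0.134) and -1.50 for Cela3b (adjusted p = 0.172).

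**Figure D5:**
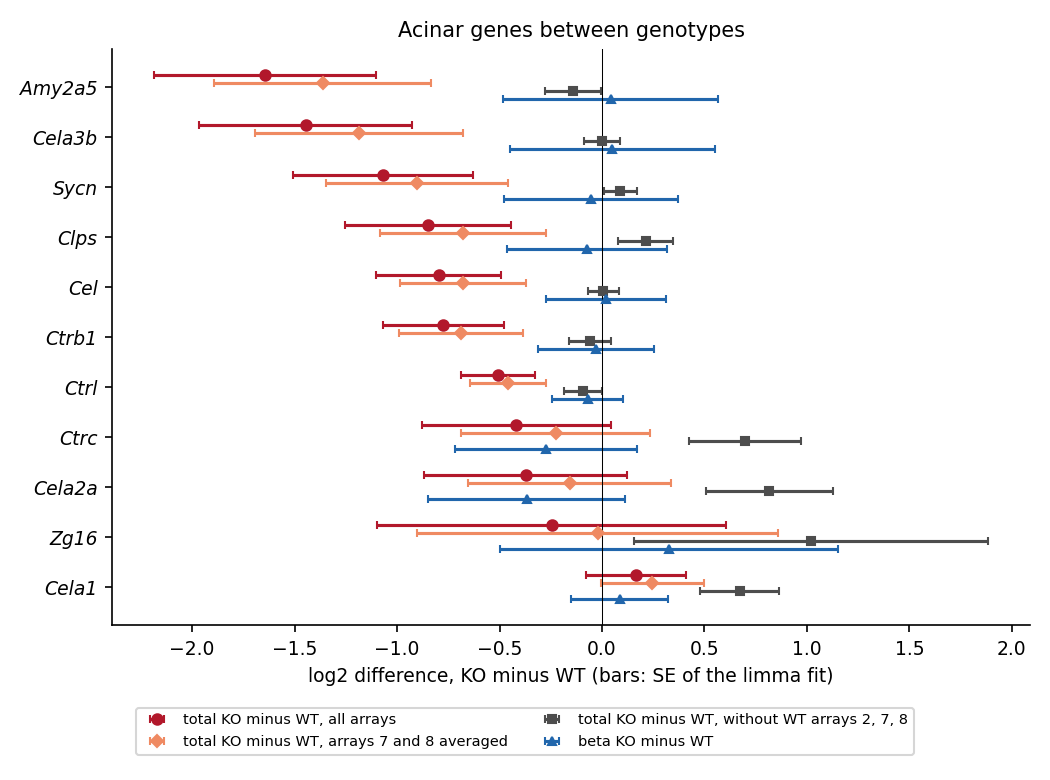
KO minus WT difference (log2, bars are the SE of the limma fit) for the 11 acinar genes past the filter that stood at least 2-fold higher on arrays 2, 7 and 8, the arrays that chose them. Values are for the total line with all arrays, with arrays 7 and 8 averaged and without arrays 2, 7 and 8, and for the β line. The total-line values of Amy2a5, Cela3b, Sycn, Clps, Cel, Ctrb1 and Ctrl lay below 0 with all arrays (-1.65 to -0.51) and at -0.14 to 0.21 without the 3, while Ctrc, Cela2a, Zg16 and Cela1 lay at 0.67 to 1.02 without the 3. The Zg16 value includes total KO replicate 5, which read 12.74, where 21 other arrays outside the total WT group read 4.87 to 5.29.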

How the data were processed

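Total liver RNA was labelled with Cy3 and hybridized to Agilent SurePrint G3 arrays. Scanner output from Feature Extraction 10.10.1.1, deposited by the authors, gives the intensity of each of 62976 spots. The authors also deposited log2 values, made with limma and quantile normalization. The log base was inferred from the scanner intensities. Here the median spot intensity, with no background removed, was used. Spots were retained where the authors' weights (found, positive, well above background) passed on at least 26 arrays or 6 of 1 group, values were quantile normalized over 31 arrays, and repeated spots of 1 probe were reduced to their median. The 99th percentile of the difference to the deposited log2 values was 0.043.

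The 8 arrays were split on the deposited Cela3b value, and differences are means of log2 values with arrays 7 and 8 averaged. Genotypes were compared with limma 3.58.1 (lmFit, eBayes) in R 4.3.3 over the 4 group means, with Benjamini-Hochberg adjustment over all probes and a threshold of 0.05. Files were read with data.table (version 1.17.8) and figures drawn with matplotlib 3.10.9. The scripts were tested on simulated data. The labels do not say that samples are separate mice in each case, so p-values measure the spread between samples. The number of arrays limits the precision.

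Members, gene lists and limits were chosen with earlier results of these data known. Named genes are Cela3b, Sycn and Clps, acinar genes at least 2-fold apart without overlap, the 10 largest and 10 smallest differences (1 probe per gene, the brightest), the first 3 of each other list, and the 10 genes most like Cela3b. The named genes include Tpgs2, Mt1, Bhlha15, Gata4, the Reg3 genes and others given as overlapping or absent, which were chosen after their values were seen. Gene names are those of the array. The 12 lists were acinar (4 lists), islet, duct, adipocyte, gut and stomach, lymphoid, red blood cell, stellate and mesothelium, and hepatocyte genes. Alternatives were the processed signal scaled to its 75th percentile, normexp with an offset of 50, no filter, a filter on all arrays, the deposited values, each array left out, limits of 1.5-fold and 4-fold, each scan day, and slide, scan day or replicate number as a block. Counting arrays 7 and 8 as 1 or 2 samples, also without the filter, was added after seeing the data. Some members of the lists are counted but not reported here by name.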

Additional observations from a re-analysis of the deposited data

Results flagged for a closer look

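Within the 4 groups, 13 values of the 27 acinar genes stood apart from the rest of their group by a wide gap, out of 116 tests of a probe in a group. The limit for such a gap is set so that about 1 in 20 groups passes it by chance, and the probes of a group are not independent. No such value came from the ChREBPtotal_WT group, in which 3 arrays were high together. Replicate 5 of the total KO group stood apart in Zg16 (12.74), Reg1 (13.51), Gp2 (7.38), Clps (7.99) and Pnliprp2 (4.75). Replicate 5 of the β KO group stood apart in Zg16 (8.04), Reg1 (10.27) and Gp2 (5.45). Replicate 7 of the total KO group was low in Cela1 (5.21), replicate 6 of the β WT group was low in Pnliprp1 (4.11), replicate 2 of that group was high in Try4 (4.94) and Prss3 (4.98), and replicate 1 was high in Gp2 (4.65). The Try4, Prss3, Pnliprp1 and β WT Gp2 values lay near background.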

How the results depend on the processing

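The difference in Cela3b, whose direction the choice of arrays fixes, was 4.15. A filter on all arrays drops its probe and gave no value. The difference was 5.08 with the processed signal, 3.31 after normexp, 4.93 within scan day 1, 3.42 within scan day 2, and 3.27 to 4.23 with each array left out, lowest without array 2. The 35 probes at least 2-fold higher became 55 with the processed signal or without a filter, 23 after normexp, 12 with a filter on all arrays, 82 at 1.5-fold, 12 at 4-fold, 354 within scan day 1, where array 2 alone is high, and 34 to 55 with each array left out (54 without array 5 and 55 without array 6). The 4 lower probes became 9 with the processed signal, 0 with a filter on all arrays, 10 at 1.5-fold, 0 at 4-fold, 296 within scan day 1, 19 within scan day 2, and 4 to 16 with each array left out (8 without array 1, 9 without array 2 and 16 without array 5). The 11 acinar genes became 27 without a filter and 2 with a filter on all arrays, which leaves fewer genes, and 10 to 12 with each array left out.

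In the total line, 7 acinar genes were called lower in KO mice. They became 4 with the processed signal, 17 without a filter, 1 with a filter on all arrays, 2 with arrays 7 and 8 averaged, 2 with no filter and that average together, 2 without arrays 2, 7 and 8, and 2 to 9 with each array left out (3 without array 2, 2 without array 7 or array 8, 4 without KO replicate 2, 4 or 8, and 3 without KO replicate 6). The 2 called higher became 0 with a filter on all arrays and were 2 with each array left out. The 5248 probes called lower became 3406 with a filter on all arrays and 4760 to 5309 with each array left out, and the 5229 called higher became 4563 to 5209. Leaving out arrays 2, 7 and 8 turned the sign of Zg16 (1.02), Cel (0.00643), Ctrc (0.70), Sycn (0.0887), Clps (0.21) and Cela2a (0.82), and leaving out array 2 that of Zg16 (0.21) and Cela2a (0.0495). With each array left out, Zg16 ranged from -1.35 to 0.21 and Cela2a from -0.59 to 0.0495. None of these was called in those fits. Total KO replicate 5, which read 12.74 in Zg16, was among the KO arrays when arrays 2, 7 and 8 were left out. In the β line the 1 probe called became 2 with the processed signal and 0 to 2 with each array left out, and the 0 acinar genes called were 0 in every fit.

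With the replicate number as a block (replicate block), 7 acinar genes were called lower in the total line, and 0 probes were called in the β line. Samples with the same number deviated together in some pairs only, with correlations of -0.21 to 0.24 in the total line and -0.16 to 0.53 in the β line, so the numbers were not taken to pair the samples. The 3 high arrays from 2 distinguishable samples limit what can be said of their spread, and probes not well above background on any of the 5 low arrays have bounds in place of differences.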
